A study of Drosophila melanogaster with 8 samples.

Results

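The basement membrane genes described here encode collagen IV (Col4a1 and vkg), the laminin chains (LanA, wb, LanB1 and LanB2), perlecan (trol), nidogen (Ndg), the collagen-binding protein SPARC and peroxidasin (Pxn). They were chosen by name, and 9 of the 10 were found among the 17559 genes of the count table by their identifier. Col4a1 stands in the authors' deposited table under its older symbol Cg25C. No row could be matched to trol by symbol or current identifier in the tables used here, so perlecan is not analysed here. The count table also holds 143 identifiers that matched no symbol, and trol may be among them under an older identifier, so its reads are not said to be missing. All 9 matched genes passed the filter on low counts and were tested among 8794 genes.

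A basement membrane is the sheet of secreted matrix on which an epithelium sits. Laminin trimers of an alpha, a beta and a gamma chain bind cell surface receptors and each other, collagen IV trimers form a separate, cross-linked network, and nidogen and perlecan link the networks. In the fly midgut the sheet lies between the epithelium and the visceral muscle, where intestinal stem cells contact it. In Drosophila much of the collagen IV of larval tissues is made in the fat body and reaches organs through the hemolymph, and blood cells also make it, so the RNA of a gut sample need not report the protein deposited there.

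The study sequenced poly(A) RNA of dissected guts from adult female flies, as 2 groups of 4 libraries. In the LamDm0 guts a UAS transgene gave enterocytes, which absorb nutrients, extra LamDm0, a B-type lamin of the nuclear envelope, and in the control guts UAS-GFP took its place. The labels call the control genotype wt and name neither the driver nor the stocks. Both groups were kept at 18 °C, moved as females of 2 to 4 days to 29 °C, and held there for 2 days before RNA was taken from dissociated guts. The labels call the libraries of a group biological repeats but do not say how many guts or which cultures each came from, so p-values measure the spread between these libraries. They take the 4 libraries of a group as independent, which was not tested.

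Totals were 22737593 to 36022790 counts in LamDm0 libraries and 19720070 to 23347139 in control libraries. Levels are given as CPM, counts per library size after TMM scaling. The limit that a count of 0 allows, taken as 3 counts, stood at 0.0683 to 0.143 CPM in LamDm0 libraries and 0.143 to 0.153 CPM in control libraries, for counting error only. Lam itself had 2702 to 4647 CPM in LamDm0 libraries and 16.2 to 20.2 CPM in control libraries, so each library matched its label. Replicates were uneven in both groups: mitochondrially encoded genes took 8.53% to 21.8% of counts in LamDm0 libraries and 5.55% to 15.2% in control libraries, and the markers of fat body and muscle described below varied too. Whole guts were used, so fewer cells of a type and less RNA per cell cannot be told apart.

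Among the 9 genes, the laminin alpha chain gene wb was lower in LamDm0 guts, none was called higher, and 8 did not pass the test. Collagen IV and SPARC transcripts had higher means in LamDm0 guts, but the groups overlapped. Over all 8794 genes, 3.26% were called lower and 4.76% higher, which makes 8.03% in either direction, so 1 call among 9 is near the background. The median log2 fold change of the 9 was 0.13, beside 0.01 over all genes tested. Fold changes are LamDm0 over control on TMM-scaled counts, with adjusted p from edgeR's quasi-likelihood test over all genes tested. DESeq2 also called 1 of the 9, wb, against 12.2% of all genes with an adjusted p.

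**Figure D1:**
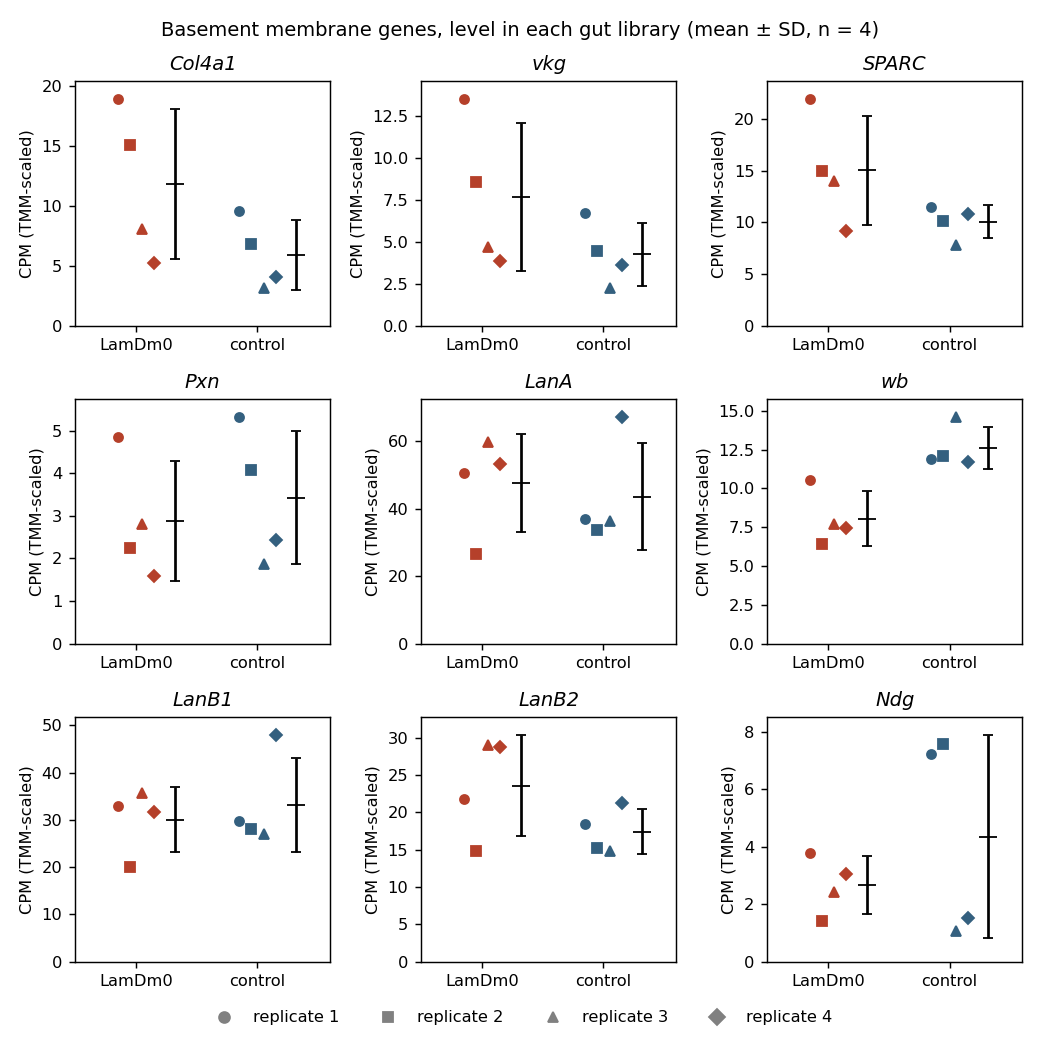
TMM-scaled CPM of the 9 basement membrane genes in each gut library, with LamDm0 libraries in red and control libraries in blue, a marker shape per replicate, and the mean and SD of 4 libraries as a black bar. The groups are separate for wb, with LamDm0 libraries at 6.43 to 10.6 CPM and control libraries at 11.7 to 14.6 CPM, and overlap for the other 8 genes.

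Collagen IV in Drosophila is a trimer of the chains encoded by Col4a1 and vkg. The 2 genes lie head to head on chromosome arm 2L of BDGP6.54, with Col4a1 (FBgn0000299) at 5029609 to 5037279 on the plus strand, vkg (FBgn0016075) at 5012144 to 5028191 on the minus strand, and 1417 bases between their annotated starts. Neither shares exon bases with another annotated gene.

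Col4a1 had 18.9, 15.0, 8.09 and 5.26 CPM in LamDm0 replicates 1 to 4, against 9.57, 6.82, 3.11 and 4.06 CPM in control replicates 1 to 4. LamDm0 replicates 1 and 2 lay above every control library, and LamDm0 replicates 3 and 4 lay within the control range. In both groups the libraries numbered 1 and 2 lay above those numbered 3 and 4. Col4a1 averaged 11.8 ± 6.25 CPM in LamDm0 guts and 5.89 ± 2.92 CPM in control guts (SD, n = 4 each), a log2 fold change of 1.00 ± 0.46 (SE; 95% interval -0.05 to 2.04; adjusted p = 0.23). That interval reaches from no change to a 4.12-fold higher level. The log2 fold change was 0.18 without LamDm0 replicates 1 and 2 and 1.72 without control replicates 1 and 2, so it rests on which libraries are kept.

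The partner chain gene vkg had 13.5, 8.57, 4.70 and 3.87 CPM in LamDm0 replicates 1 to 4, against 6.70, 4.43, 2.22 and 3.63 CPM in control replicates 1 to 4. The same libraries were high as for Col4a1, and the groups overlapped. The log2 fold change was 0.84 ± 0.45 (95% interval -0.17 to 1.86; adjusted p = 0.30), with 0.01 without LamDm0 replicates 1 and 2 and 1.39 without LamDm0 replicates 3 and 4. The ratio of vkg to Col4a1 counts stayed narrow while the levels varied, at 0.570 to 0.736 in LamDm0 libraries and 0.649 to 0.894 in control libraries.

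SPARC (FBgn0026562; 3R, 26869238 to 26871995) encodes a secreted glycoprotein that binds collagen IV and is needed in the fly for collagen IV to be deposited normally. It had 21.9, 14.9, 14.0 and 9.19 CPM in LamDm0 replicates 1 to 4, against 11.5, 10.1, 7.84 and 10.8 CPM in control replicates 1 to 4. In LamDm0 guts 3 of 4 libraries lay above every control library, and replicate 4 lay inside the control range. The mean was 15.0 ± 5.24 CPM in LamDm0 guts and 10.1 ± 1.59 CPM in control guts, and the log2 fold change was 0.57 ± 0.25 (95% interval 0.02 to 1.13; unadjusted p = 0.045 by edgeR). Adjusted over all genes it did not pass (adjusted p = 0.20), and 23.9% of all genes tested had an unadjusted p under 0.05. It was 0.20 without LamDm0 replicates 1 and 2 and 0.88 without LamDm0 replicates 3 and 4.

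Pxn (FBgn0011828; 3L, 2601455 to 2630064) encodes peroxidasin, the enzyme that forms sulfilimine cross-links in collagen IV. Its counts were low, at 47 to 122 in LamDm0 libraries and 38 to 111 in control libraries. The levels were 4.85, 2.24, 2.80 and 1.59 CPM in LamDm0 replicates 1 to 4, against 5.31, 4.07, 1.87 and 2.44 CPM in control replicates 1 to 4. The groups overlapped over most of their range, with a log2 fold change of -0.26 ± 0.42 (95% interval -1.21 to 0.69; adjusted p = 0.75). Its exons share 82 bases with CG16986 on the opposite strand and 151 with lncRNA:CR45660 on the same strand, out of 5955.

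**Figure D2:**
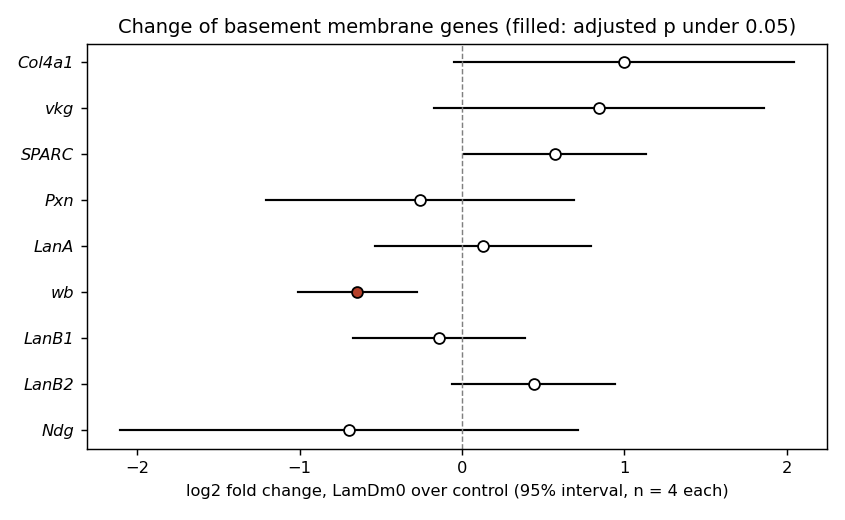
Log2 fold change of LamDm0 over control for the 9 genes (points) with the 95% interval of the edgeR fit (lines). The filled point is wb at -0.65, whose adjusted p is under 0.05, and the intervals of Col4a1, vkg, Pxn, LanA, LanB1, LanB2 and Ndg include 0.

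The gene called was wb (wing blister; FBgn0261563; 2L, 14263027 to 14328262), which encodes an alpha chain of laminin. Its annotated span holds 4 other genes, none of which shares exon bases with it. It had 10.6, 6.43, 7.71 and 7.46 CPM in LamDm0 replicates 1 to 4, against 11.9, 12.1, 14.6 and 11.7 CPM in control replicates 1 to 4. Every LamDm0 library lay below every control library, the 1 of the 9 genes whose groups were separate. Of all genes tested, 7.38% were separate in that direction, 9.95% in the other and 17.3% in either. The transcript fell to 8.04 ± 1.78 CPM in LamDm0 guts, against 12.6 ± 1.35 CPM in control guts (log2 fold change -0.65 ± 0.16, a 1.56-fold lower level; 95% interval -1.01 to -0.28; adjusted p = 0.044). The authors' deposited table gives -0.64 with an adjusted p of 0.00537, in a table where 12.2% of genes with an adjusted p pass 0.05. The call was held without LamDm0 replicate 1 (adjusted p = 0.014) and lost without any 1 of the other 7 libraries (adjusted p = 0.062 to 0.11), while the log2 fold change stayed between -0.80 and -0.55 in those fits.

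The other alpha chain gene, LanA (FBgn0002526; 3L, 6203831 to 6218022), did not pass. It had 50.6, 26.6, 59.7 and 53.3 CPM in LamDm0 replicates 1 to 4, against 37.1, 33.7, 36.4 and 67.2 CPM in control replicates 1 to 4. Control replicate 4 was the highest library of all and LamDm0 replicate 2 the lowest. The log2 fold change was 0.13 ± 0.29 (95% interval -0.54 to 0.79; adjusted p = 0.83), and 0.41 without control replicate 4.

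LanB1 (FBgn0261800; 2L, 7811438 to 7820771), which encodes the beta chain, had 32.9, 20.0, 35.8 and 31.7 CPM in LamDm0 replicates 1 to 4, against 29.8, 28.0, 27.0 and 47.9 CPM in control replicates 1 to 4. The highest and the lowest library were the same as for LanA. Its log2 fold change was -0.14 ± 0.23 (95% interval -0.67 to 0.39; adjusted p = 0.76) and 0.09 without control replicate 4.

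LanB2 (FBgn0267348; 3L, 9614914 to 9623980), which encodes the gamma chain, had 21.7, 14.9, 29.1 and 28.7 CPM in LamDm0 replicates 1 to 4, against 18.4, 15.2, 14.8 and 21.2 CPM in control replicates 1 to 4. In LamDm0 guts 3 of 4 libraries lay above every control library, and replicate 2 lay at the lower end of the control range. The log2 fold change was 0.44 ± 0.22 (95% interval -0.06 to 0.94; adjusted p = 0.27). It passed without LamDm0 replicates 1 and 2 (log2 fold change 0.73, adjusted p = 0.042) and was 0.08 without LamDm0 replicates 3 and 4.

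Ndg (FBgn0026403; 2R, 10313891 to 10322104) encodes nidogen, which binds laminin and collagen IV. Its levels were 3.78, 1.43, 2.42 and 3.07 CPM in LamDm0 replicates 1 to 4, against 7.23, 7.59, 1.08 and 1.53 CPM in control replicates 1 to 4. Control libraries fell into a high and a low pair, with 151 and 149 counts in replicates 1 and 2 and 22 and 32 counts in replicates 3 and 4, and all LamDm0 libraries but replicate 2 lay between the pairs. The log2 fold change of -0.70 ± 0.62 (95% interval -2.10 to 0.71; adjusted p = 0.54) was 1.04 without control replicates 1 and 2 (adjusted p = 0.24) and -1.46 without control replicates 3 and 4 (adjusted p = 0.042). Of its 4816 exon bases, 158 are shared with CG34222 on the opposite strand.

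**Figure D3:**
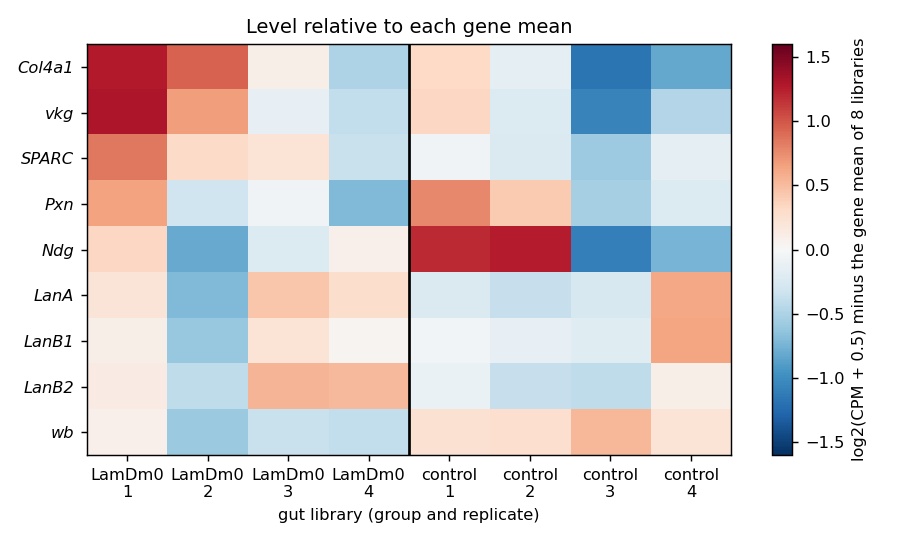
Level of each gene in each library as log2(CPM + 0.5) minus the mean of the gene over 8 libraries, with LamDm0 libraries left of the line and control libraries right of it. Col4a1, vkg and SPARC are highest in LamDm0 replicate 1 and lowest in control replicate 3, LanA and LanB1 are highest in control replicate 4, and wb is below its mean in LamDm0 replicates 2, 3 and 4 and above it in all controls.

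The genes did not vary as 1 block. Col4a1, vkg and SPARC shared their highest library, LamDm0 replicate 1, and their lowest, control replicate 3. LanA and LanB1 shared control replicate 4 as highest and LamDm0 replicate 2 as lowest, Ndg was highest in control replicates 1 and 2, and wb was highest in control replicate 3. Summed over the 9 genes, the level was 179, 110, 164 and 144 CPM in LamDm0 replicates 1 to 4, against 137, 122, 109 and 171 CPM in control replicates 1 to 4, and the groups overlapped. Most of that sum was LanA, LanB1 and LanB2.

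Levels of different genes were compared as CPM per kilobase of annotated exon, a scale that depends on the isoforms counted. SPARC was highest in both groups, at 12.5 ± 4.37 CPM per kilobase in LamDm0 guts and 8.37 ± 1.32 in control guts. LanB1, LanA and LanB2 followed, at 4.79 ± 1.11, 4.07 ± 1.24 and 3.99 ± 1.14 CPM per kilobase in LamDm0 guts, against 5.28 ± 1.58, 3.73 ± 1.35 and 2.94 ± 0.509 in control guts. SPARC and LanB1 did not overlap in LamDm0 libraries and overlapped in control libraries, and the ranges of LanB1 and LanA, and of LanA and LanB2, overlapped in both groups. Within a library LanB1 was above LanA in 4 of 4 libraries of either group.

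Col4a1 came next in both groups, at 1.92 ± 1.01 CPM per kilobase in LamDm0 guts and 0.956 ± 0.473 in control guts, and its range did not overlap that of LanB2 in control guts. vkg had 1.18 ± 0.675 CPM per kilobase in LamDm0 guts and 0.653 ± 0.288 in control guts. wb had 0.578 ± 0.128 CPM per kilobase in LamDm0 guts and 0.905 ± 0.0968 in control guts, and Pxn was lowest in both, at 0.482 ± 0.237 and 0.575 ± 0.263. From Col4a1 down to Pxn the neighbours in the order overlapped in both groups. Of the alpha chains, LanA was the more abundant per kilobase in each of the 8 libraries.

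Ratios of 2 counts within a library do not depend on library size or scaling. For 6 pairs of known partners, chosen after the levels had been seen, the log2 ratio was compared between groups by an exact two-sided permutation test, in which 4 against 4 libraries can give no p below 0.029, and p was adjusted over the 6 pairs. None passed at 0.05. After this adjustment a pair with fully separate groups could pass only if more of the 6 pairs had been separate. For such pairs a failure to pass is therefore not evidence of an unchanged ratio. The Pxn to Col4a1 ratio was 0.257, 0.149, 0.346 and 0.303 in LamDm0 replicates 1 to 4, against 0.555, 0.597, 0.603 and 0.600 in control replicates 1 to 4. Every LamDm0 library lay below the control libraries (log2 difference -1.23, lower in 4 of 4 libraries; exact p = 0.029, adjusted p = 0.086). The control ratios were close together, although the level of either gene varied about as much as in the LamDm0 group. They rest on 38 to 111 Pxn and 63 to 200 Col4a1 counts, and the LamDm0 ratios on 47 to 122 and 231 to 475. Counting error of the ratios was not computed, so the closeness of the controls is not read as a trait of the pair.

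The LanB1 to LanB2 ratio was 1.51, 1.35, 1.23 and 1.10 in LamDm0 replicates 1 to 4, against 1.62, 1.84, 1.82 and 2.26 in control replicates 1 to 4. These groups did not overlap either (log2 difference -0.54; exact p = 0.029, adjusted p = 0.086). Of single genes tested, 17.3% were separate in either direction, and the share of separate ratios among other gene pairs was not computed. The wb to LanA ratio was 0.129 to 0.242 in LamDm0 libraries and 0.174 to 0.401 in control libraries and overlapped through control replicate 4 (log2 difference -0.79; exact p = 0.086, adjusted p = 0.17). For vkg to Col4a1, SPARC to Col4a1 and Ndg to LanB2 the log2 differences were -0.18, -0.44 and -0.70 (exact p = 0.26, 0.23 and 0.43; adjusted p = 0.31, 0.31 and 0.43).

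**Figure D4:**
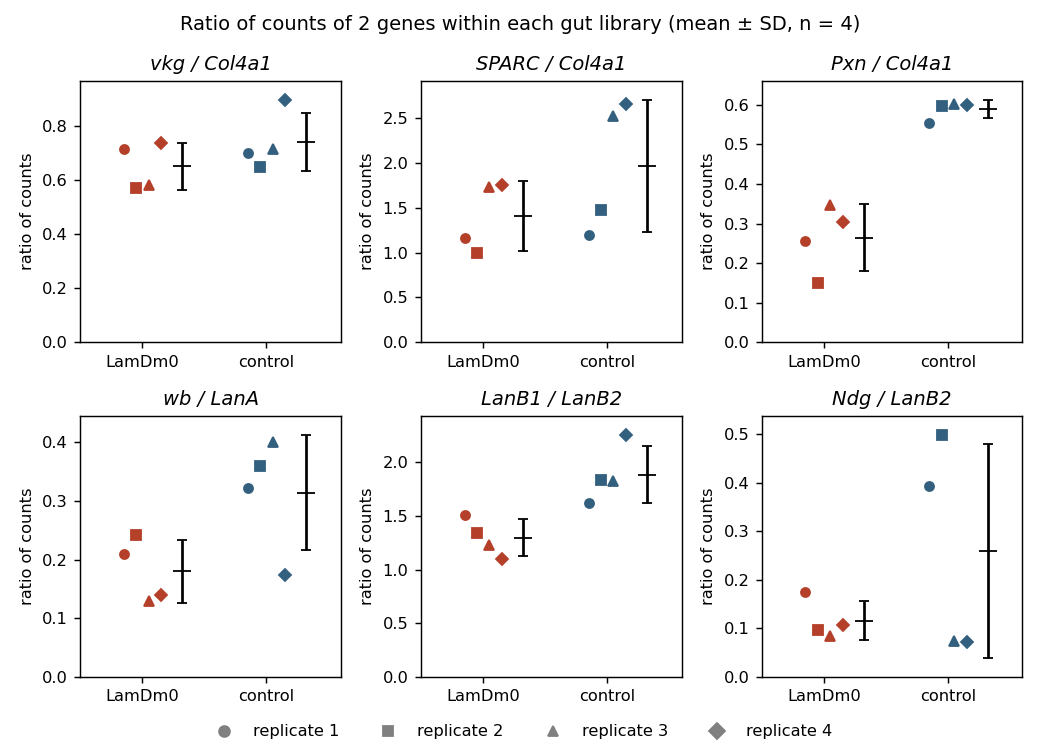
Ratio of the counts of 2 genes in each gut library, with LamDm0 libraries in red, control libraries in blue, a marker shape per replicate and the mean and SD of 4 libraries as a black bar. The groups are separate for Pxn to Col4a1 (0.149 to 0.346 in LamDm0 libraries, 0.555 to 0.603 in control libraries) and for LanB1 to LanB2 (1.10 to 1.51 in LamDm0 libraries, 1.62 to 2.26 in control libraries), and overlap for the other 4 pairs. The pairs were chosen after the levels had been seen, and the share of separate ratios among other gene pairs was not computed.

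Of 14 genes for collagen modification, cross-linking and secretion, 12 were tested, 1 was higher, 0 were lower and 11 did not pass, with a median log2 fold change of -0.08. Over all genes tested, 4.76% were called higher and 3.26% lower. The gene that rose was Loxl1, which encodes a lysyl oxidase-like protein; in vertebrates enzymes of that family cross-link collagen. It had 137, 113, 66 and 64 counts in LamDm0 replicates 1 to 4, against 4, 0, 2 and 0 counts in control replicates 1 to 4. Every LamDm0 library lay far above every control library, at 1.46 to 5.45 CPM against at most 0.191 CPM, and the fitted log2 fold change was 5.53 ± 0.80 (adjusted p = 0.0052), a size that depends on the prior count because the controls hold 6 counts in all. The call was kept in each of the 8 fits with 1 library left out (adjusted p = 0.0061 to 0.017). Loxl1 shares 48 of 1435 exon bases with CG11334 on the same strand.

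The enzymes that hydroxylate collagen did not pass and pointed in different directions, named after their values were seen. Plod, a lysyl hydroxylase, had 5.59 ± 0.865 CPM in LamDm0 guts and 4.42 ± 0.904 CPM in control guts (log2 fold change 0.34 ± 0.19, adjusted p = 0.32). PH4alphaEFB, a prolyl hydroxylase subunit, had 6.80 ± 1.00 CPM in LamDm0 guts and 8.43 ± 0.586 CPM in control guts (-0.31 ± 0.13, adjusted p = 0.20). For Tango1, which acts at the ER exit sites where collagen leaves, the difference on the log2 scale was -0.01 ± 0.14 (adjusted p = 0.97). Sec23, a coat subunit of those sites (-0.27 ± 0.10, adjusted p = 0.15 by edgeR), was the other gene of the list that DESeq2 called besides Loxl1. DESeq2 called 12.2% of all genes with an adjusted p.

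Of 17 genes for matrix proteases and other matrix proteins, 14 were tested and 0 were called by edgeR, with a median log2 fold change of 0.10. At an unadjusted p under 0.05 there were 3 (stl, Tig and Tsp), beside 23.9% of all genes tested. DESeq2 called 1, Tsp, beside 12.2% of all genes with an adjusted p. The smallest p belonged to Tsp, which encodes thrombospondin, at 0.365 ± 0.255 CPM in LamDm0 guts and 1.31 ± 0.812 CPM in control guts (log2 fold change -1.77 ± 0.61, adjusted p = 0.12). For the matrix metalloproteinase genes Mmp1 and Mmp2 the log2 differences were -0.20 ± 0.22 (adjusted p = 0.63) and 1.12 ± 0.58 (adjusted p = 0.29), and for Timp, which encodes their inhibitor, 0.13 ± 0.21 (adjusted p = 0.74). These 3 were picked with their values in view.

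Of 20 genes for matrix receptors and integrin adhesion, 18 were tested, 1 was higher, 0 were lower and 17 did not pass, with a median log2 fold change of 0.03. That 1 call stands beside 4.76% called higher over all genes tested. The gene that rose was parvin, which encodes a partner of integrin-linked kinase at integrin adhesions. It had 44.2, 43.2, 46.6 and 52.6 CPM in LamDm0 replicates 1 to 4, against 35.3, 32.4, 32.9 and 37.6 CPM in control replicates 1 to 4, without overlap (log2 fold change 0.43 ± 0.10, adjusted p = 0.033). Leaving out any of 6 libraries singly ended the call, with an adjusted p of at most 0.094. Of 1840 exon bases 269 are shared with asRNA:CR45501 on the opposite strand and 145 with Alr on the same strand, so its level is uncertain. The receptors themselves did not pass: for mys, the main integrin beta subunit gene, the log2 difference was 0.34 ± 0.26 (adjusted p = 0.47), and for Dg, which encodes the laminin receptor dystroglycan, it was 0.05 ± 0.14 (adjusted p = 0.86). Both were picked with their values in view.

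Other tissues that make basement membrane proteins can be carried along in a gut dissection, and their markers were read beside these genes. The 8 fat body genes listed, 5 of them tested, summed to 1765, 1886, 1202 and 918 CPM in LamDm0 replicates 1 to 4, against 798, 715, 18.3 and 521 CPM in control replicates 1 to 4. The groups did not overlap in that sum, and its lowest library, control replicate 3, was also the lowest for Col4a1, vkg and SPARC. Its highest was LamDm0 replicate 2, while Col4a1, vkg and SPARC were highest in LamDm0 replicate 1. LamDm0 replicate 4 lay above control replicate 1 in the sum and below it for Col4a1, vkg and SPARC. By edgeR 0 of the 5 were called, and 1 was under 0.05 before adjustment, beside 23.9% of all genes tested. None passed in DESeq2 (0 calls), and the median log2 fold change was 1.52. The smallest p belonged to apolpp, the apolipophorin gene, at 156 ± 50.4 CPM in LamDm0 guts and 33.4 ± 22.6 CPM in control guts (log2 fold change 2.22 ± 0.72, adjusted p = 0.10). It passed without control replicate 3 (adjusted p = 0.013). The yolk protein genes of that list are also expressed in ovarian follicle cells, and the 3 genes not tested (Lsp2, Fbp1 and Fbp2) were at or near 0 in all libraries but LamDm0 replicate 3, where Lsp2 had 6.95 CPM. The part of fat body RNA in the levels of Col4a1, vkg and SPARC was not tested.

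**Figure D5:**
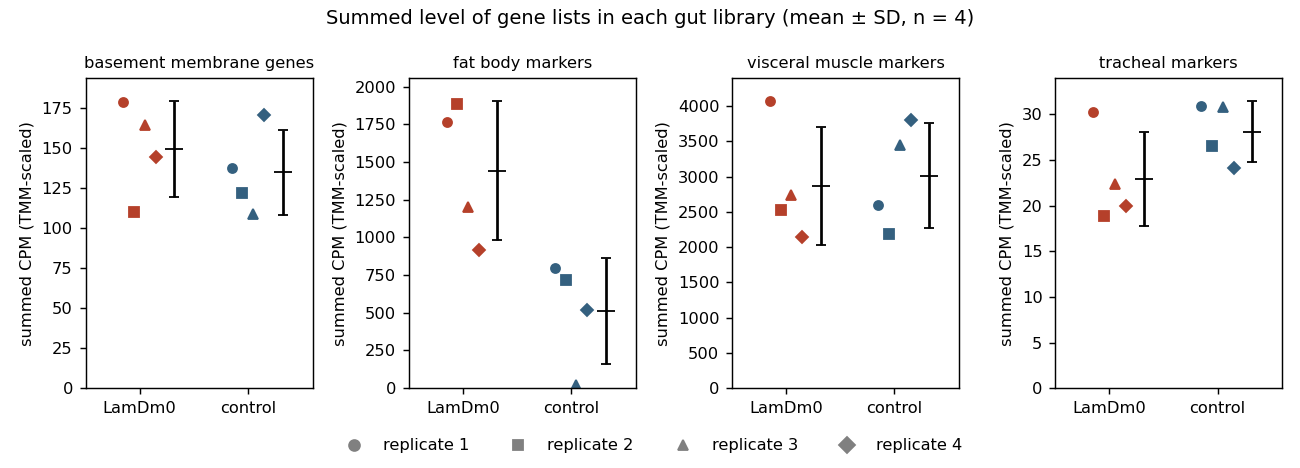
Summed TMM-scaled CPM of the basement membrane genes and of the fat body, visceral muscle and tracheal marker lists in each library, with LamDm0 in red, control in blue, a marker shape per replicate, and the mean and SD of 4 libraries as a black bar. The groups are separate for the fat body markers (918 to 1886 CPM in LamDm0 libraries, 18.3 to 798 CPM in control libraries) and overlap for the other 3 lists.

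The 15 visceral muscle genes found summed to 2137 to 4066 CPM in LamDm0 libraries and 2191 to 3809 CPM in control libraries. By edgeR 0 were called, 0 were under 0.05 before adjustment and 0 passed in DESeq2, with a median log2 fold change of -0.06; the smallest p belonged to Mef2, a muscle transcription factor gene (-0.17 ± 0.10, adjusted p = 0.34). LamDm0 replicate 1 had the highest muscle sum and the highest Col4a1, vkg and SPARC, while control replicates 3 and 4, with the next highest muscle sums, had the lowest Col4a1 and vkg. The part of muscle RNA in these levels was not tested.

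Hemocytes are another source of collagen IV and peroxidasin. Of 9 hemocyte genes found, 5 were too low to be tested, and 0 of the 4 tested were called by edgeR or had an unadjusted p under 0.05, with a median log2 fold change of 0.32. The smallest p belonged to srp, a GATA factor gene (log2 fold change 0.62 ± 0.36, adjusted p = 0.35). The sum of the list, 187 to 213 CPM in LamDm0 libraries and 196 to 229 CPM in control libraries, was mostly crq and Pvr. Of defining markers, He had 0 counts in all 4 LamDm0 libraries and 1 count in the control libraries together, eater had at most 2 counts in a library, and Hml had 0.159 to 3.38 CPM in LamDm0 libraries and 0.458 to 2.11 CPM in control libraries. NimC1 had 34, 14, 9 and 9 counts in LamDm0 replicates 1 to 4, against 4, 0, 1 and 0 counts in control replicates 1 to 4. It was the 1 gene of the list that DESeq2 called, beside 12.2% of all genes with an adjusted p. The part of hemocyte RNA was not tested.

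For the tracheal markers 0 of 6 were called by edgeR, had an unadjusted p under 0.05 or were called by DESeq2, with a median log2 fold change of -0.06, and their sum was 18.9 to 30.3 CPM in LamDm0 libraries and 24.1 to 30.9 CPM in control libraries. The smallest p belonged to Gasp, a chitin-binding protein gene (log2 fold change -0.52 ± 0.23, adjusted p = 0.21). Of 7 enterocyte markers, Amy-p, an amylase gene with a near-identical copy, and Alp4, an alkaline phosphatase gene, were lower (log2 fold changes -1.21 ± 0.29 and -1.44 ± 0.34, adjusted p = 0.039 and 0.037; each lost without any 1 of 5 libraries), and 5 did not pass, with a median of -0.24. Over all genes tested, 3.26% were called lower. Of 7 stem cell and enteroblast markers and 7 enteroendocrine markers, 0 and 0 were called by edgeR, with medians of 0.04 and 0.24. Before adjustment 0 and 2 were under 0.05, beside 23.9% of all genes tested. In DESeq2 0 and 1 (Mip) passed, beside 12.2% of all genes with an adjusted p. The smallest p of these lists belonged to Egfr (log2 fold change -0.32 ± 0.21, adjusted p = 0.40) and Mip (1.06 ± 0.33, adjusted p = 0.092).

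The genes whose pattern over the 8 libraries was most like the mean of the 9 were sought among the 6646 genes averaging 5 CPM or more. They were corto, CG31705, Gart, Pka-C3 and CG30389, with Pearson's r of 0.88, 0.87, 0.87, 0.86 and 0.85 between log2(CPM + 0.5) values, given as a description of 8 libraries. As the highest of 6646 genes searched, such values of r can arise by chance. The 9 genes did not vary as 1 block, so their mean need not describe any of them. None of the 5 passed the test between the groups (adjusted p = 0.67 to 0.89).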

How the data were processed

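Whole-gut mRNA was read as 50-base single reads from libraries of a directional kit, per the labels' protocols. The authors deposited a table of raw counts per gene for 8 libraries and a table of their own comparison. The submitters' processing notes name TopHat2 2.0.13, HTSeq 0.6.0, DESeq2 1.10.1 and the build BDGP6. For the annotation release and the counting's strand setting the sources used here give nothing. From the authors' deposited table the log2 fold change and adjusted p-value of wb were used, and its mean signal per gene was not.

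The basement membrane genes and all lists were chosen with earlier results of these data known. Of 17559 identifiers, 17253 took a current symbol, 163 the authors' symbol and 143 none. Every sample column was used (0 others), and 0 rows lacked a gene identifier. Genes passing edgeR's filterByExpr were scaled by TMM and compared by edgeR 4.0.16's quasi-likelihood test (R 4.3.3) over all 8 libraries with no replicate block, with Benjamini-Hochberg adjustment over 8794 genes and a threshold of 0.05. The standard error is the absolute log2 fold change over the square root of F, and 95% intervals use the fit's degrees of freedom. The script was tested on simulated data. CPM are TMM-scaled, and exon lengths, positions and overlaps come from Ensembl's annotation of BDGP6.54. Named were all members, Lam, up to 4 called genes of each other list or, with none called, the gene with the smallest p, and the 5 genes most alike in pattern. Genes named outside that rule are marked as such or stand in a count of 5 or fewer. Alternatives were DESeq2 1.42.0, limma-voom (limma 3.58.1), DESeq2-type size factors, other filters, no mitochondrial genes and Lam, a replicate block, and left-out or summed libraries. The within-library ratios were added after seeing the data.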

Additional observations from a re-analysis of the deposited data

Results flagged for a closer look

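In groups of 4 libraries, 64 sets of values were searched for a library far from the other 3, and 5 were found. Chance alone gives about 1 in 20 such sets.

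LanA had 67.2 CPM in control replicate 4, against 33.7 to 37.1 CPM in the other controls. LanB1 had 47.9 CPM in the same library, against 27.0 to 29.8 CPM in the other controls. The gamma chain gene LanB2 was also highest there among controls, at 21.2 CPM, and wb was not, at 11.7 CPM.

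The level of wb was 14.6 CPM in control replicate 3, against 11.7 to 12.1 CPM in the other controls. The Pxn to Col4a1 ratio was 0.555 in control replicate 1, against 0.597 to 0.603 in the other controls, all above the LamDm0 libraries. It rests on 111 Pxn and 200 Col4a1 counts in control replicate 1, and on 38 and 63 in control replicate 3. Counting error of the ratio was not computed, and this gap may be no larger than that error. Among the genes most alike in pattern, corto had 29.4 CPM in LamDm0 replicate 1, against 18.9 to 19.5 CPM in the other LamDm0 libraries.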

How the results depend on the processing

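Where a result changed, the cause was not tested. Genes called higher and lower numbered 419 and 287, against 659 and 628 by DESeq2, 273 and 188 over genes averaging 10 CPM or more, 211 and 121 with a replicate block, 176 and 120 without control replicates 1 and 2, and 36 and 36 with libraries summed in pairs. Lower calls were 137 without LamDm0 replicates 3 and 4 and 435 without control replicates 3 and 4. With 1 library left out they were 214 to 387 higher and 132 to 267 lower. Of the basement membrane genes 0 were lower with no filter, with at least 10 CPM, with the replicate block, with summed pairs, without LamDm0 replicates 3 and 4 and without control replicates 1 and 2, and 0 to 1 with 1 library left out. Without control replicates 3 and 4 the 1 gene called lower was Ndg (adjusted p = 0.042), and wb did not pass (adjusted p = 0.12). Without LamDm0 replicates 1 and 2, 1 was higher (LanB2). For wb adjusted p was 0.0054 by DESeq2, 0.037 by limma-voom, 0.052 with no filter, 0.067 with at least 10 CPM, 0.095 with the replicate block and 0.32 with summed pairs. With the replicate block edgeR's adjusted p was 0.058 for Col4a1 and 0.12 for vkg, against 0.23 and 0.30 without it, and neither passed. The median log2 fold change of the 9 ranged over -0.00064 to 0.41 with 1 library left out and was 0.41 without control replicates 1 and 2 and 0.43 without control replicates 3 and 4.

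Directions turned for LanB1 (-0.23 to 0.091 with 1 library left out, 0.025 without LamDm0 replicates 1 and 2, 0.057 without control replicates 3 and 4), LanA (-0.00064 to 0.41, -0.16 without LamDm0 replicates 3 and 4, -0.12 without control replicates 1 and 2), Pxn (-0.64 to 0.032, 0.066 without LamDm0 replicates 3 and 4, 0.41 without control replicates 1 and 2) and Ndg (1.04 without control replicates 1 and 2). The log2 ratio difference turned for SPARC to Col4a1 (0.037 without control replicates 3 and 4) and Ndg to LanB2 (0.60 without control replicates 1 and 2). A mean of at least 10 CPM leaves out Col4a1, vkg, Ndg and Pxn. Deviations of log2 CPM from the group mean, over all genes tested, correlated at -0.39 to -0.01 between same-numbered libraries. In these deviations 0 of 8 libraries correlated best with their own number, so the numbers were not taken to pair the samples between groups. Within each group, replicates 1 and 2 stood apart from replicates 3 and 4 in TMM scaling factor. They lay below replicates 3 and 4 in LamDm0 libraries and above them in control libraries. In control libraries their share of mitochondrial counts was also lower. The libraries of a group may therefore not be independent, which was not tested. P-values that take them as independent may be too small. Low counts limit Pxn and Ndg most.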

Other observations

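Other matrix genes varied between libraries in the pattern of collagen IV or apart from it, named after their values were seen. Glt, which encodes the secreted matrix protein glutactin, had 9.62, 9.05, 6.64 and 3.98 CPM in LamDm0 replicates 1 to 4, against 5.03, 4.17, 0.148 and 2.34 CPM in control replicates 1 to 4. Its lowest library, control replicate 3, was also the lowest for Col4a1 and for the fat body markers. Glt had only 3 counts there, at the limit that a count of 0 allows. Its log2 fold change of 1.32 ± 0.68 did not pass (edgeR adjusted p = 0.28). Tig, which encodes the integrin ligand tiggrin, had 5.84, 3.90, 3.80 and 2.34 CPM in LamDm0 replicates 1 to 4, against 3.26, 2.70, 1.58 and 1.86 CPM in control replicates 1 to 4 (0.75 ± 0.33, edgeR adjusted p = 0.20). The groups overlapped for both genes.

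Mmp2 had 4.17, 3.09, 16.1 and 12.6 CPM in LamDm0 replicates 1 to 4, against 3.26, 3.36, 2.17 and 7.84 CPM in control replicates 1 to 4. LamDm0 replicates 3 and 4 lay above every control library and the other two lay inside the control range. The integrin gene mys was high in the same LamDm0 libraries, at 178, 166, 337 and 330 CPM in LamDm0 replicates 1 to 4, against 217, 209, 158 and 215 CPM in control replicates 1 to 4. Neither gene passed.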
